A study of Mus musculus with 12 samples.

Results

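Keratins are the intermediate filament proteins of epithelial cells, and each filament is built from pairs of a type I and a type II keratin. Simple epithelia use Krt8 with Krt18, the basal layer of stratified epithelia uses Krt5 with Krt14, and other members mark suprabasal epidermis, mucosa, cornea, hair follicle and nail. In the thymus, Krt8 and Krt18 are the classical stains of cortical epithelium and Krt5 and Krt14 those of medullary epithelium, and medullary cells also transcribe many genes that are otherwise restricted to single tissues. The keratin genes were taken by their symbols, as Krt followed by a number and at most 1 letter, without the keratin-associated proteins. Of 54 such symbols, Krt74 is annotated as a pseudogene and was left out, which left 53 genes, 28 of type I and 25 of type II, among 34677 genes in the authors' normalized table.

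Thymic epithelial cells were sorted from pools of 5 to 10 mice aged 4 to 6 weeks, either wild-type (WT) C57BL/6 or Aβ0/0, which lack MHC class II on account of a disrupted H2-Ab1 gene. Epithelial cells (Epcam+, CD45-) that stained for the surface antigen Ly51 but not with the lectin UEA1 were taken as cortical (cTEC), and those with the opposite stain as medullary (mTEC), and 3 libraries were made of each of the 4 groups (cTEC WT, cTEC Aβ0/0, mTEC WT, mTEC Aβ0/0). A library is a pool of mice and a whole sorted gate, so a lower level cannot be told apart from fewer cells of a type that expresses the gene. The study lists fewer sorted mTEC per pool for Aβ0/0 than for WT and likewise fewer cTEC, and in each genotype fewer cTEC than mTEC per pool. Cell input therefore cannot be told apart from genotype in either gate, nor from the gate in either genotype.

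Total estimated counts ran from 21710319 to 36139815 per library. H2-Ab1 lay between 6504 and 11190 CPM (counts scaled to library size) in WT libraries and between 1899 and 3851 in Aβ0/0 libraries, and the groups did not overlap. The summed level of 8 cTEC markers was 8324 to 21933 CPM in cTEC and 556 to 1379 in mTEC, and that of 10 mTEC markers was 443 to 2713 CPM in cTEC and 10658 to 26054 in mTEC. Among markers of other cells, 7 fibroblast genes summed to 2316 to 3148 CPM in cTEC and 202 to 469 in mTEC, and 10 thymocyte genes to 272 to 790 CPM in cTEC and 40 to 163 in mTEC. In WT, 6 granulocyte genes summed to 0.183 to 156 CPM in cTEC and 472 to 625 in mTEC, 6 tuft cell genes to 23.5 to 153 and 272 to 614, and 9 genes of dendritic cells, macrophages and B cells to 8459 to 14310 and 15729 to 20330, while 5 endothelial genes were higher in cTEC, at 41.8 to 87.4 against 26.3 to 35.8. The sum of the 9 genes includes Cd74 of the MHC class II pathway, so it is not a measure of those cells alone. In cTEC WT, 4 of the 9 had a mean of at least 1 CPM, and in mTEC WT 8 did. In Aβ0/0, the granulocyte genes (0.373 to 0.666 CPM in cTEC and 52.5 to 146 in mTEC) and the tuft cell genes (42.4 to 224 and 381 to 1807) were again apart. The 6 genes of keratinocyte-like medullary cells, which include Krt1 and Krt10, summed to 114 to 395 CPM in cTEC WT and 334 to 409 in mTEC WT, which overlapped. In Aβ0/0 they summed to 83.4 to 124 and 158 to 664, which were apart. Genes with at least 5 counts numbered 16056 to 17092 in cTEC WT and 20720 to 20757 in mTEC WT, which were apart. In Aβ0/0 they numbered 15165 to 16798 and 15938 to 17734, which overlapped. The part of these markers and gene numbers in the keratin differences between the gates was not tested.

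Keratin genes lie in 2 clusters of the GRCm38 (mm10) assembly. The 27 members on chromosome 11 span 99232761 to 100269871, all on the minus strand and all of type I. The 26 members on chromosome 15 span 101347444 to 102032027, and all but Krt18 are of type II. Krt18, the type I partner of Krt8, lies 23.7 kb from Krt8 and points away from it on the plus strand. In the same build, Krt8 spans chr15:101996698-102004482, Krt18 chr15:102028180-102032027, Krt5 chr15:101707070-101712898, Krt14 chr11:100203162-100207548, Krt17 chr11:100256217-100261029 and Krt20 chr11:99428403-99438150.

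The 100 bases before the RefSeq start are shown for the pair that leads in cTEC, for Krt5, and for 5 keratins that were higher in WT mTEC. They are RefSeq sequences of GRCm38.p6, and 36 of the 53 genes had an entry. Capitals mark TATAAA on either strand.
Krt8: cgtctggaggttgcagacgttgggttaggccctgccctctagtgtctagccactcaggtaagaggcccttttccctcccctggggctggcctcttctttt
Krt18: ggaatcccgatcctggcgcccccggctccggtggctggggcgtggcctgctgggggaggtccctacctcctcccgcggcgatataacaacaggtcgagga
Krt5: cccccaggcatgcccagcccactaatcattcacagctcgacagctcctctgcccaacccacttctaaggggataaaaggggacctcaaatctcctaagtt
Krt20: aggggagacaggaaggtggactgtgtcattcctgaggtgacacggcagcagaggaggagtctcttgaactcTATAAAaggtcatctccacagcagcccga
Krt12: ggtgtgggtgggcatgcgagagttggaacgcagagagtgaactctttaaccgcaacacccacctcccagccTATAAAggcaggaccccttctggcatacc
Krt71: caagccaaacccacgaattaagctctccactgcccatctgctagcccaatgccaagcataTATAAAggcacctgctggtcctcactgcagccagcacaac
Krt72: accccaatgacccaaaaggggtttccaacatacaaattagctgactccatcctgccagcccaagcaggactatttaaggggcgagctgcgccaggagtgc
Krt76: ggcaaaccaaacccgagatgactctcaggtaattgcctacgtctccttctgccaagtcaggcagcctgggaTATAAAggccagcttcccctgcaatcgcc

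These windows are Krt8 chr15:102004343-102004442, Krt5 chr15:101712906-101713005, Krt71 chr15:101743098-101743197, Krt72 chr15:101786521-101786620 and Krt76 chr15:101892921-101893020 on the minus strand, Krt18 chr15:102028116-102028215 on the plus strand, and Krt20 chr11:99438154-99438253 and Krt12 chr11:99422260-99422359 on the minus strand. The RefSeq start of Krt8 lies 140 bases inside the gene as GENCODE gives it, so the Krt8 window lies within that gene, and the last 36 bases of the Krt18 window and the last 12 of the Krt71 window lie within theirs. Over the whole 250 bases before the start, TATAAA was found in 45.9% of 37 keratin promoters (Krt13 has 2) and in 12.4% of all 32851 promoters. It was found in 9 of the 19 keratins higher in WT mTEC that had an entry and in 8 of the 17 other keratins with an entry. In Krt72 it lies further upstream than the bases shown. GGGCGG was found in 5.41% of the keratin promoters and in 32.7% of all promoters, and TGANTCA in 5.41% and 6.75%.

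A group of 8 keratins made up nearly all keratin RNA, and 45 made up the rest. Levels are compared between genes as TPM, the transcript abundance scaled for length and library size. The 8 keratins with a mean of at least 50 TPM in every group, a limit set after the levels were seen, were Krt18, Krt8, Krt17, Krt14, Krt5, Krt7, Krt19 and Krt10. They held 99.0 to 99.5% of keratin TPM in cTEC and 94.1 to 98.3% in mTEC. All keratins together were 0.514 to 1.04% of a library's TPM. They took 0.514 to 0.906% in cTEC WT and 0.956 to 1.04% in cTEC Aβ0/0, which did not overlap, and 0.835 to 0.907% in mTEC WT and 0.759 to 1.03% in mTEC Aβ0/0, which did.

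**Figure D1:**
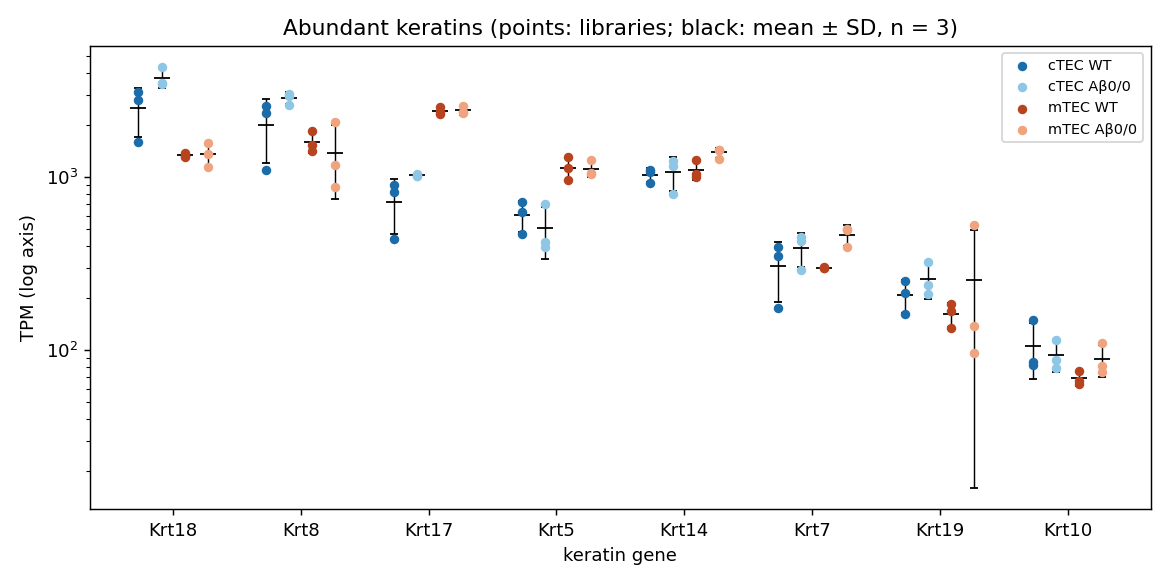
TPM (log axis) of the 8 abundant keratins, with a point for each library and the mean ± SD of 3 libraries in black. Krt17 leads in both mTEC groups at 2425 and 2443 TPM, and Krt18 in both cTEC groups at 2512 and 3778 TPM.

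In cTEC WT, Krt18 was at 2512 ± 794 TPM (SD, n = 3) and Krt8 at 2019 ± 807, followed by Krt14 at 1033 ± 93.4. The libraries of Krt18 and Krt8 overlapped, and so did those of Krt8 and Krt14. In cTEC Aβ0/0 the order was the same, with Krt18 at 3778 ± 493, Krt8 at 2881 ± 219 and Krt14 at 1072 ± 236 TPM, and Krt18, Krt8 and Krt14 did not overlap. The third place of Krt14 in cTEC rests on a transcript without a coding sequence. With coding transcripts only, Krt14 was at 400 TPM in cTEC WT, below Krt17 at 723 and Krt5 at 607, and at 398 in cTEC Aβ0/0, below Krt17 at 1027 and Krt5 at 507. In mTEC WT the order changed, with Krt17 at 2425 ± 127, Krt8 at 1607 ± 221, Krt18 at 1339 ± 40.5, Krt5 at 1137 ± 175 and Krt14 at 1104 ± 140 TPM. Krt17 stood apart from Krt8, and Krt8 from Krt18, whereas Krt18, Krt5 and Krt14 overlapped in turn. In mTEC Aβ0/0, Krt17 led at 2443 ± 133 TPM, and Krt14 at 1393 ± 94.1, Krt8 at 1386 ± 635, Krt18 at 1371 ± 219 and Krt5 at 1119 ± 121 overlapped in turn. With coding transcripts only, Krt14 was at 799 TPM in mTEC WT and 999 in mTEC Aβ0/0, below Krt5 in both.

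As shares of keratin TPM, Krt8 and Krt18 together took 52.8 to 71.7% in cTEC and 26.8 to 35.9% in mTEC, and Krt17 took 8.53 to 10.7% in cTEC and 23.3 to 30.8% in mTEC. Both shares were apart between the gates in every library. The ratio of type I to type II TPM was 1.62 ± 0.254 in cTEC WT, 1.67 ± 0.179 in mTEC WT, 1.66 ± 0.169 in cTEC Aβ0/0 and 1.91 ± 0.325 in mTEC Aβ0/0, and the groups overlapped. In CPM, which is not scaled for length, these ratios were 1.07, 1.16, 1.15 and 1.27.

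**Figure D2:**
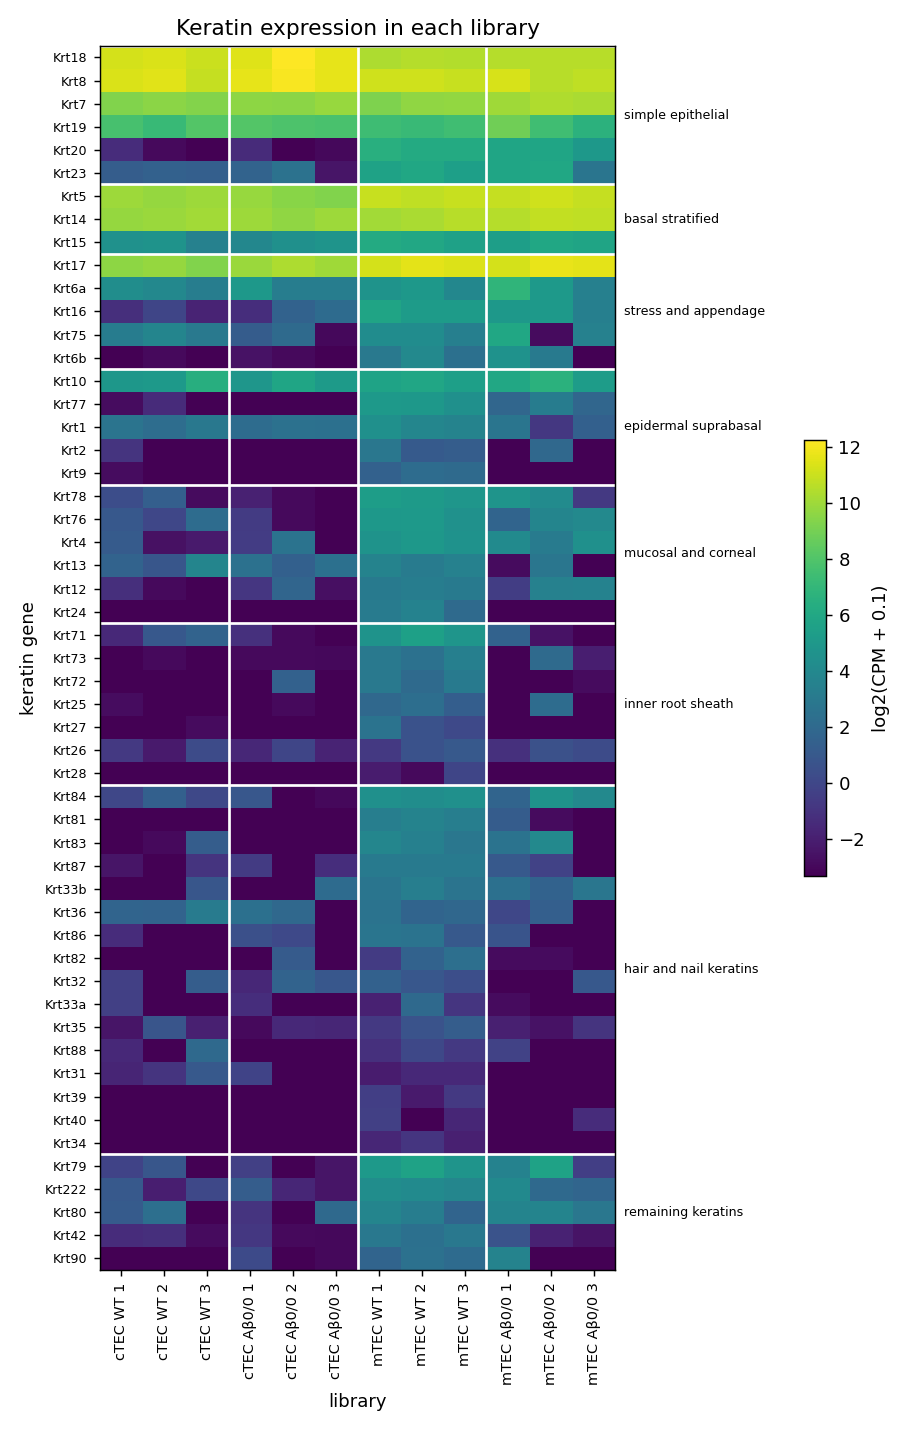
log2(CPM + 0.1) of the 53 keratins (rows, by role) in the 12 libraries (columns, by group). The low keratins fill most rows in the 3 mTEC WT libraries, where 43 to 47 keratins reach 1 CPM, against 16 to 23 in cTEC.

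The first comparison asks how the medullary and the cortical gate differ in wild-type mice. Of 48 keratins tested, 29 were higher in mTEC and 1 was lower (edgeR quasi-likelihood test, adjusted p under 0.05), where 18% of all 18667 genes tested were called higher in mTEC and 8.81% lower. With all 12 libraries fitted together, 15 were higher and 1 lower, and Krt1, Krt4, Krt25, Krt42, Krt71, Krt76, Krt78, Krt79, Krt82, Krt84, Krt86, Krt87, Krt90 and Krt222 were not called, with edgeR adjusted p of 0.0504 to 0.311. Leaving out 1 library gave 24 calls (without mTEC replicate 1) to 36 (without cTEC replicate 3). The call of Krt86 was lost without any of the mTEC libraries, that of Krt4 without mTEC replicate 1 or 2, and that of Krt1 without any library but cTEC replicate 3. The remaining 5 (Krt28, Krt31, Krt34, Krt39 and Krt40) were too low to test. Many members passed the filter on low counts through mTEC alone, where they were high, so these counts describe the tested members. The median log2 fold change was 3.96 over the tested keratins and 0.06 over all genes. Tested members of 6 of the 8 role groups had positive medians above 1, and the simple epithelial group was at -0.02.

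Krt18 was the member called lower in mTEC. It was at 2379, 2666 and 2080 CPM in cTEC WT and at 1277, 1460 and 1382 in mTEC WT, and the groups did not overlap. The log2 fold change was -0.79 ± 0.24 (SE), with an edgeR adjusted p of 0.0414, and the call was lost in 8 of 13 alternatives. The edgeR adjusted p was 0.0657 with the pool as a block, 0.0532 with no filter and 0.0818 to 0.156 without cTEC replicate 1 or 2 or any of the mTEC libraries, and limma on the authors' normalized (rlog) values gave an adjusted p of 0.0544. Krt8, its partner, was at 2647, 2933 and 1863 CPM in cTEC and 2250, 2243 and 1988 in mTEC. These overlapped, and its log2 fold change of -0.20 had an edgeR adjusted p of 0.641.

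Krt5, the basal type II keratin, was at 989, 877 and 986 CPM in cTEC WT and at 1955, 1718 and 1958 in mTEC WT. Every mTEC library was above every cTEC library, by a log2 fold change of 0.98 ± 0.23 with an edgeR adjusted p of 0.0141, which was 0.0525 without mTEC replicate 1 and 0.0727 without mTEC replicate 3. Krt14, its partner, was at 871, 936 and 1088 CPM in cTEC and 1072, 1211 and 1494 in mTEC, and the groups overlapped, with an edgeR adjusted p of 0.296. Krt15, the other basal type I keratin, was at 23.2, 25.1 and 11.2 CPM in cTEC and 72.4, 63.9 and 47.3 in mTEC, and was higher in mTEC by 1.63 ± 0.35 (log2 fold change). Its edgeR adjusted p of 0.0107 was 0.06 without mTEC replicate 1, and limma on rlog gave 0.0879.

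Krt17, a keratin of hair follicles and of stressed or wounded epithelium, was at 784, 866 and 632 CPM in cTEC and 2454, 3165 and 2753 in mTEC. It was higher in mTEC in every library, by a log2 fold change of 1.88 ± 0.26 with an edgeR adjusted p of 0.00225. Krt16, of the same role, was at 0.329, 0.854 and 0.199 CPM in cTEC and 55.4, 37.3 and 37.4 in mTEC, a log2 fold change of 6.51 ± 0.58. Of its 31-base words, 48.1% are found in no other gene, and 17.6% of the words of Krt14 are shared with it. Krt6b rested on a single count in cTEC and was at 7.58, 15.7 and 5.3 CPM in mTEC. Only 43% of its 31-base words are found in no other gene, so its reads may be shared with Krt6a.

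Krt10, a suprabasal epidermal keratin, did not pass the test with all libraries, at 30.4, 33.4 and 85.5 CPM in cTEC and 51.5, 60 and 43.8 in mTEC. The log2 fold change was 0.06, with an edgeR adjusted p of 0.938. Without cTEC replicate 3, the highest library, it was 0.70 and was called, with an edgeR adjusted p of 0.0349. Krt7 and Krt19, of simple epithelia, also did not pass, with log2 fold changes of 0.15 and -0.33.

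Krt20, a keratin of intestinal and urothelial surfaces and of Merkel cells, was nearly absent from cTEC. It was at 0.288, 0.0305 and 0 CPM in cTEC WT and at 90.9, 71.6 and 73.9 in mTEC WT. The log2 fold change was 9.57 ± 0.76, with an edgeR adjusted p of 3.4e-04. Krt23 was at 2.26, 2.81 and 2.51 CPM in cTEC and 49.2, 61.5 and 44.3 in mTEC, a log2 fold change of 4.35 ± 0.29.

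Among the called members, 5 had no count in any cTEC WT library, and their folds are lower bounds against 3 counts per library. Krt81 was at least 96.7-fold higher in mTEC, Krt24 at least 73.4-fold, Krt72 at least 60.2-fold, Krt90 at least 38.9-fold and Krt82 at least 25.4-fold. Krt28, Krt34, Krt39 and Krt40 also had none, and were too low in mTEC (23 to 35 counts over 3 libraries) to be tested. Krt72 is an inner root sheath keratin, and Krt81 and Krt82 are hair keratins. Krt81 has 48.7% of its 31-base words in no other gene, and Krt86, also called higher, has 50%. The others called higher were Krt1, Krt4, Krt9, Krt12, Krt25, Krt27, Krt42, Krt71, Krt73, Krt76, Krt77, Krt78, Krt79, Krt84, Krt86, Krt87 and Krt222.

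By role, where 18% of all genes were called higher, the members called higher were 5 of 6 tested among mucosal and corneal keratins, 5 of 6 among inner root sheath keratins, 5 of 12 among hair and nail keratins, 3 of 5 among epidermal suprabasal keratins, 3 of 5 among stress and appendage keratins, 2 of 3 among basal keratins, 2 of 6 among simple epithelial keratins (where Krt18 was lower) and 4 of 5 among the remaining ones. Krt77, an epidermal suprabasal keratin, was at 0.0411, 0.274 and 0 CPM in cTEC and 34.4, 31.4 and 22 in mTEC. Krt4, of mucosa, was at 2.1, 0.061 and 0.12 CPM in cTEC and 25.1, 31.3 and 24.4 in mTEC. Krt71, of the inner root sheath, was at 0.247, 1.86 and 2.95 CPM in cTEC and 25.3, 45.1 and 28.2 in mTEC. All of these were separate between the gates.

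**Figure D3:**
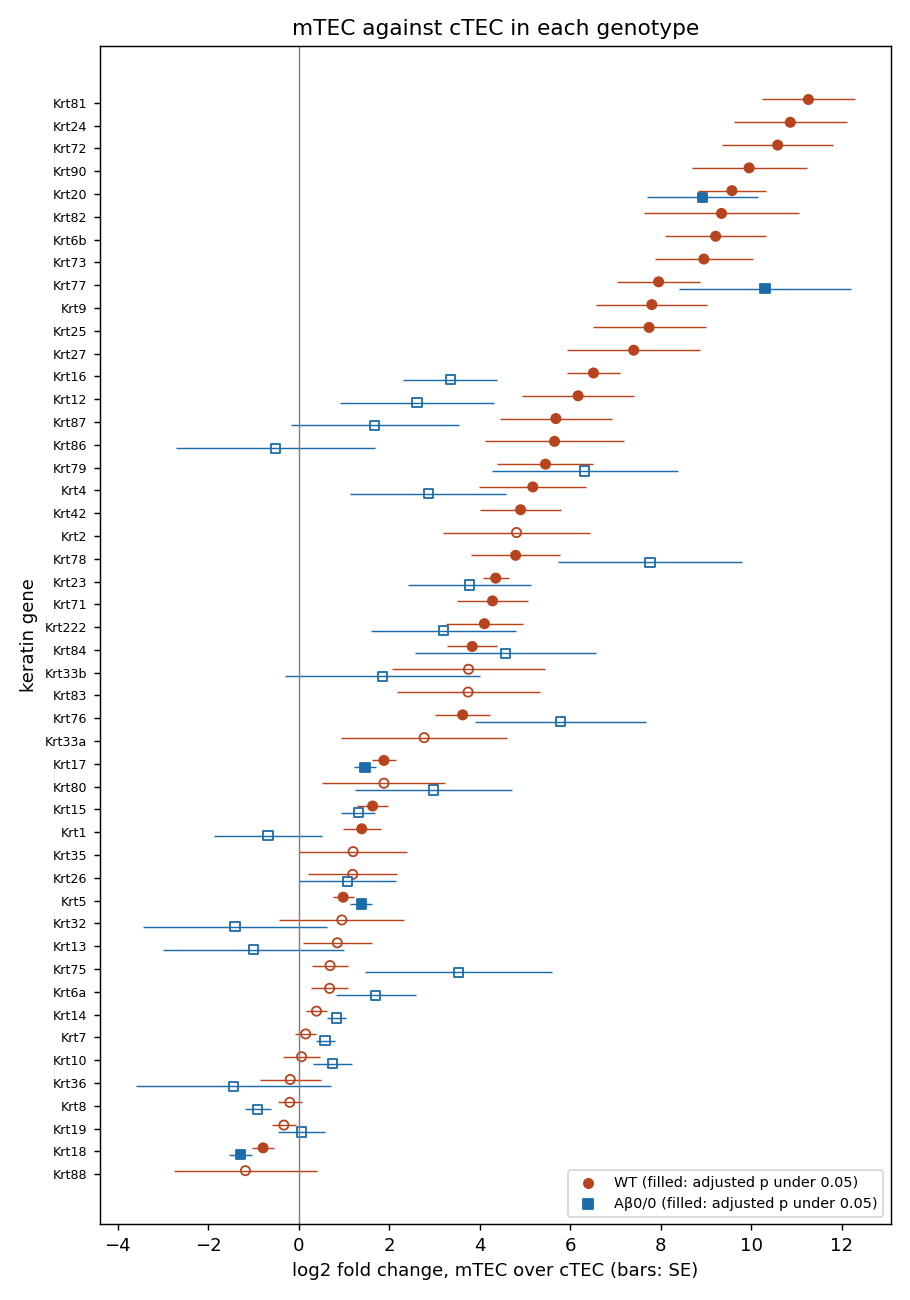
log2 fold change of mTEC over cTEC with its SE for the 48 keratins tested in WT (red) and, where tested, in Aβ0/0 (blue), filled where the adjusted p is under 0.05. Krt18 lies left of 0 in both genotypes, at -0.79 and -1.29.

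The same gates were compared in Aβ0/0 mice. Of 31 keratins tested, 4 were higher in mTEC and 1 lower, where 3.45% of 15687 genes were called higher and 2.15% lower. The other 22 were too low to test, and some tested members, such as Krt77 and Krt20, passed the filter on low counts through mTEC alone, so these counts describe the tested members. Krt18 was at 2819, 4838 and 3249 CPM in cTEC and 1458, 1502 and 1497 in mTEC, a log2 fold change of -1.29 ± 0.26 with an edgeR adjusted p of 0.0337. Krt8 was at 3245, 4358 and 3215 CPM in cTEC and 2537, 1510 and 1696 in mTEC, which did not overlap, but its edgeR adjusted p was 0.129.

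Krt17 was at 949, 1260 and 1060 CPM in cTEC and 2455, 3411 and 3169 in mTEC, higher by a log2 fold change of 1.46 ± 0.24 (edgeR adjusted p = 0.0147). Krt5 was at 920, 716 and 633 CPM in cTEC and 1870, 2193 and 1873 in mTEC, higher by 1.38 ± 0.24 (edgeR adjusted p = 0.0185). Both sets of libraries were apart. Krt20 was at 0.272, 0 and 0.0275 CPM in cTEC and 56.7, 57 and 31.8 in mTEC, a log2 fold change of 8.92 ± 1.22 (edgeR adjusted p = 0.00848). Krt77 was absent from the cTEC libraries and at 3.42, 9.16 and 3.35 CPM in mTEC, at least 57.9-fold higher, with an edgeR adjusted p of 0.0392. That call was lost in 9 of 13 alternatives, with an adjusted p of 0.139 with the pool as a block, 0.0636 with no filter, 0.0664 with a mean of at least 10 counts and 0.087 to 0.125 when any 1 library was left out. Leaving out 1 library at a time changed these counts, to 2 calls without cTEC replicate 2, 3 without mTEC replicate 1, and 1 without cTEC replicate 3, mTEC replicate 2 or mTEC replicate 3, and DESeq2 called 17. Krt18 was not called without cTEC replicate 2 or 3 or any of the mTEC libraries, Krt5 without cTEC replicate 2 or 3 or mTEC replicate 2 or 3, and Krt17 without cTEC replicate 3 or mTEC replicate 2 or 3. Krt14 was at 993, 820 and 1011 CPM in cTEC and 1477, 1826 and 1757 in mTEC, apart in every library, with an edgeR adjusted p of 0.0649. It was called with DESeq2 (adjusted p = 3.3e-04) and with all 12 libraries fitted in edgeR (adjusted p = 0.0236), as was Krt8 (adjusted p = 0.0208 with DESeq2 and 0.0467 with edgeR).

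The third comparison asks which keratins differ in mTEC that lack MHC class II. Of 47 keratins tested, 5 were higher in WT and 0 lower, where 5.32% of 18636 genes were called higher in WT and 0.338% lower. Of these, Krt24, Krt9, Krt72 and Krt82 passed the filter on low counts through WT alone, where they were high. The adjusted p of the 5 lay between 0.0352 and 0.0481. No keratin was called when any of the WT libraries or Aβ0/0 replicate 3 was left out, 2 were without Aβ0/0 replicate 2 and 12 without Aβ0/0 replicate 1. None was called with all 12 libraries fitted together, with no filter, with a mean of at least 10 counts or with the replicate number, under which the study lists the sorts of both genotypes, as a block, whereas DESeq2 called 10.

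Krt24 was at 8.78, 11.6 and 4.14 CPM in mTEC WT and had no count in the 3 mTEC Aβ0/0 libraries, at least 73.2-fold higher. Krt9, an epidermal keratin of palms and soles, was at 2.77, 4.38 and 4.14 CPM in WT and had no count in Aβ0/0, at least 33.7-fold higher. The WT libraries of Krt72 held 7.84, 4.08 and 8.22 CPM, and the Aβ0/0 libraries 0, 0 and 0.0377. For Krt82 they held 0.554, 2.84 and 5.11 CPM against 0.0385, 0.0356 and 0. Counting error alone gives a ratio of 529 for Krt72 (95% exact binomial interval 94.6 to 20942) and of 123 for Krt82 (33.7 to 1021).

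Krt77 was the called member detected in every Aβ0/0 mTEC library. Its WT libraries held 34.4, 31.4 and 22 CPM against 3.42, 9.16 and 3.35 in Aβ0/0, and the log2 fold change was 2.45 ± 0.52 with an edgeR adjusted p of 0.0442. Krt27 was at 6.09, 1.42 and 1 CPM in WT and had no count in Aβ0/0, and its edgeR adjusted p was 0.0553.

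**Figure D4:**
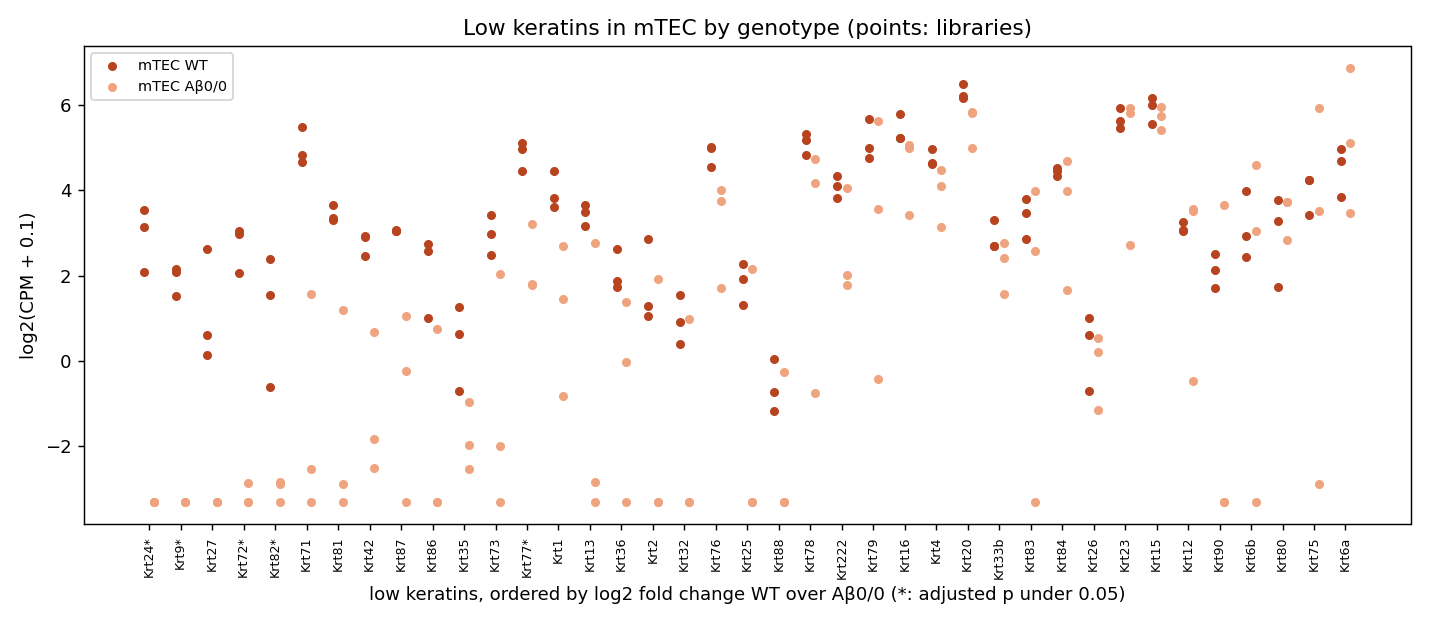
log2(CPM + 0.1) of the low keratins tested in mTEC, with a point per library, ordered by the log2 fold change of WT over Aβ0/0. The 3 WT points of most members lie close together, whereas the 3 Aβ0/0 points of Krt83, Krt78 and Krt75 spread from near or at 0 CPM to 15.7, 26.5 and 61.4 CPM.

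Detection of the low keratins was uneven among the Aβ0/0 mTEC libraries. Of the 45 low keratins, 35 reached 1 CPM in all 3 WT mTEC libraries, and of those, 12 did so in all 3 Aβ0/0 libraries, 19 in 1 or 2 and 4 in none. Among 13118 genes that reached 1 CPM in all 3 WT mTEC libraries with a mean in the same range, 74% reached it in all 3 Aβ0/0 libraries, 20.7% in 1 or 2 and 5.3% in none. The range is wide and most of those genes are also detected in cTEC. Krt75, a hair follicle keratin, was at 18.9, 19 and 10.6 CPM in WT and 61.4, 0.0356 and 11.3 in Aβ0/0. Krt79 was at 32.1, 50.8 and 27 CPM in WT and 11.8, 49.7 and 0.641 in Aβ0/0. Krt83, a hair keratin, was at 13.8, 10.9 and 7.15 CPM in WT and 5.89, 15.7 and 0 in Aβ0/0.

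The abundant members did not pass the edgeR test in this comparison. Krt5, Krt8, Krt17 and Krt18 had log2 fold changes of -0.09, 0.15, -0.13 and -0.13, with edgeR adjusted p between 0.779 and 0.869. Krt14 and Krt10 had larger ones, of -0.44 and -0.40, with edgeR adjusted p of 0.315 and 0.7. Krt7 was at 611, 816 and 830 CPM in WT and 1033, 1361 and 1252 in Aβ0/0, apart in every library but with an edgeR adjusted p of 0.0949. It was called with DESeq2 (adjusted p = 0.0113) and by edgeR without Aβ0/0 replicate 1 (adjusted p = 0.0448). Krt19 was at 170, 148 and 176 CPM in WT and 472, 178 and 103 in Aβ0/0, and the high value was that of replicate 1. Other measures moved in these libraries too. Aire, the regulator of tissue-restricted genes in mTEC, was at 657 ± 301 CPM in WT and 143 ± 32.1 in Aβ0/0, and the ranges (443 to 1002 and 121 to 180) were apart. The summed level of 10 mTEC markers was 10658 to 14557 CPM in WT and 12745 to 26054 in Aβ0/0, and that of 6 genes of keratinocyte-like medullary cells 334 to 409 and 158 to 664, which overlapped. The latter 6 genes include Krt1 and Krt10, so their sum is not independent of the keratin values. The summed level of 6 granulocyte genes was 472 to 625 CPM in WT and 52.5 to 146 in Aβ0/0, where Ngp and Elane had no count, and genes with at least 5 counts numbered 20720 to 20757 and 15938 to 17734, both apart. The part of these in the keratin differences was not tested.

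In cTEC, 0 of 27 keratins tested differed between WT and Aβ0/0 by edgeR, where 0.0194% of 15432 genes were called, and 0 had an unadjusted p under 0.05. DESeq2 called 0 and gave 7 with an unadjusted p under 0.05, and limma on the authors' normalized values called 0 and gave 3. Krt7, Krt8, Krt17 and Krt18 were lower in every WT library than in any Aβ0/0 library, with log2 fold changes of -0.24, -0.52, -0.50 and -0.59, and Krt75 and Krt76 were higher, with 2.26 and 3.63. None passed the test. The share of all genes apart in this way is not given, so the separation is only described. In the same libraries, 10 thymocyte genes summed to 272 to 440 CPM in WT and 489 to 790 in Aβ0/0. The 5 endothelial genes summed to 41.8 to 87.4 and 24.8 to 32.3, and both sums were apart. Their part in the keratin values was not tested. The difference of the genotype effect between mTEC and cTEC was called for 0 of 49 keratins by edgeR, where 0.0103% of 19461 genes were called, and 3 had an unadjusted p under 0.05; DESeq2 called 3 and limma on the normalized values 5.

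Krt14 had a different mix of transcripts in the gates. It has 2 annotated transcripts, a coding one and a processed transcript without a coding sequence. The coding one took 40, 46.4 and 28.1% of the gene's TPM in cTEC WT and 71.9, 70.5 and 74.2% in mTEC WT. In Aβ0/0 it took 44, 29.6 and 35% in cTEC and 73.1, 68.5 and 73.3% in mTEC. The gates did not overlap in either genotype. The coding transcript was at 261 to 512 TPM in cTEC WT and at 704 to 938 TPM in mTEC WT, while the processed transcript was at 591 to 666 and 295 to 325 TPM. These are kallisto's division of reads between transcripts that share sequence, and 71.8% of the gene's 31-base words are found in no other gene.

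**Figure D5:**
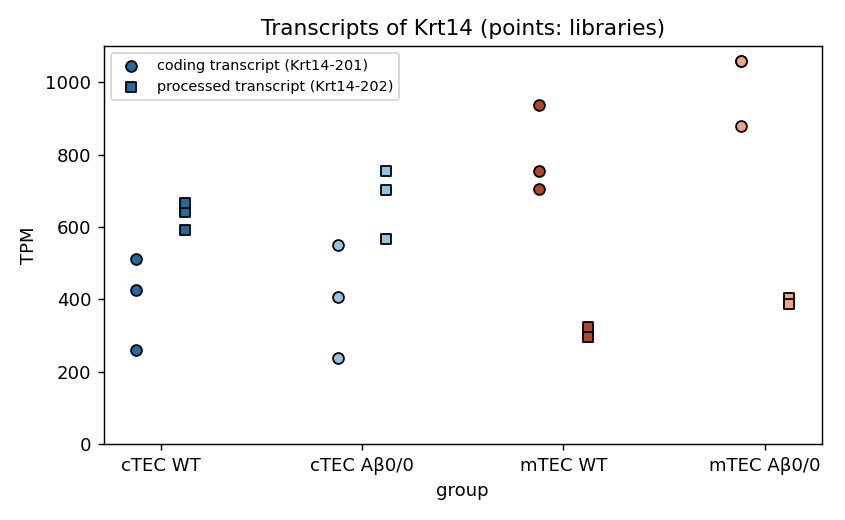
TPM of the 2 Krt14 transcripts, a point per library in each of the 4 groups. The processed transcript is above the coding one in every cTEC library, and the coding one above the processed one in every mTEC library.

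Genes that work beside keratins were counted in the same comparisons. Among cornified envelope genes, which build the outer shell of keratinocytes, 21 of 29 tested were higher in WT mTEC than in WT cTEC and 0 lower, where 18% of all genes were called higher and 8.81% lower, with a median log2 fold change of 3.88 against 0.06 over all genes. Hrnr, Cdsn, Sprr4, Sprr3 and Lce3a had no count in cTEC WT and others were close to 0 there, so these passed the filter on low counts through mTEC alone and the counts describe the tested genes. Calm4 was at 0.0505 ± 0.0259 CPM in cTEC WT and 61.6 ± 19.8 in mTEC WT, and Cnfn at 0.0203 ± 0.0352 and 32 ± 9.14. In Aβ0/0, 5 of 20 tested were higher in mTEC and 0 lower, where 3.45% of all genes were called higher and 2.15% lower. There, 10 members were too low to test, and Sprr1b, called higher, had no count in cTEC and passed the filter through mTEC alone.

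Desmosome genes, which anchor keratin filaments at cell junctions, were 6 higher and 2 lower of 16 in WT mTEC, against the 18% and 8.81% of all genes. Some of those called higher, such as Dsg1b at 0.222 ± 0.122 CPM in cTEC WT, were close to 0 there. They passed the filter on low counts through mTEC alone, so the counts describe the tested genes. Dsg2 was at 91.5 ± 15.5 CPM in cTEC WT and 261 ± 21 in mTEC WT, whereas Dsc3 was at 494 ± 157 and 93.5 ± 6.34. Plakins and hemidesmosome genes, some of which link keratins to the basement membrane, were 0 higher and 3 lower of 9, against the same shares of all genes. Plec was at 289 ± 57.8 CPM in cTEC WT and 144 ± 13.3 in mTEC WT, and Itgb4 at 485 ± 112 and 219 ± 57.8.

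Regulators of keratin genes were 5 higher and 3 lower of 17 in WT mTEC, where 18% of all genes were called higher and 8.81% lower. Trp63, the p63 factor of basal epithelium, was at 611 ± 104 CPM in cTEC WT and 146 ± 25.9 in mTEC WT. Zfp750 and Grhl3, of epidermal differentiation, were at 3.84 ± 1.01 and 2.14 ± 0.94 CPM in cTEC WT and 37.8 ± 8.75 and 21.3 ± 7.24 in mTEC WT. Other intermediate filament genes were 5 higher and 3 lower of 15, against the same shares. Some of those called higher, such as Nefh at 0.151 ± 0.261 CPM in cTEC WT, were close to 0 there. They passed the filter on low counts through mTEC alone, so the counts describe the tested genes. Vim, vimentin, was at 38.7 ± 14.8 CPM in cTEC WT and 137 ± 15.8 in mTEC WT, and Synm, synemin, at 180 ± 8.92 and 34.1 ± 5.26.

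Between genotypes in mTEC, 2 of 29 cornified envelope genes were higher in WT and 0 lower, and 2 of 9 plakin and hemidesmosome genes were lower in WT and 0 higher. Over all genes, 5.32% were called higher in WT and 0.338% lower, and the share of cornified envelope genes was near it, at 6.9%. Lce3a and Sprr3 were at 3.2 ± 0.381 and 3.43 ± 0.439 CPM in WT and had no count in Aβ0/0, and passed the filter through WT alone. Among other intermediate filament genes, 1 of 15 was higher in WT, Ina, at 2.73 ± 2.46 CPM in WT and with no count in Aβ0/0 (edgeR adjusted p = 0.0499). Ina also passed the filter through WT alone, and this share of 6.67% was near the 5.32% of all genes. Macf1 was at 114 ± 8.7 CPM in WT and 193 ± 5.65 in Aβ0/0, and Dst at 171 ± 2.04 and 326 ± 82.5. In cTEC, none of these 5 lists had a called gene between genotypes by edgeR.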

How the data were processed

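RNA of sorted thymic epithelial cells was amplified by the authors (SMART-Seq v4, a kit for low input) and sequenced on an Illumina HiSeq. Per the submitters' processing notes, reads were handled with bcl2fastq 2.20.0, Trim Galore and kallisto 0.43 (build mm10). The deposited estimated counts and TPM values are kallisto's per transcript, and the deposited log2 values are the authors' rlog-transformed gene values from DESeq2. Of 109282 transcripts per library, 107987 matched GENCODE M21 and were summed to genes, and the sums were rounded; the 1295 unmatched held 0.45 to 0.512% of counts. Comparisons of 3 against 3 libraries were fitted over all genes passing filterByExpr with edgeR 4.0.16 (TMM, robust quasi-likelihood, Benjamini-Hochberg, threshold 0.05), in R 4.3.3. Fits with DESeq2 1.42.0 and limma 3.58.1 were alternatives. The fits were also run on simulated counts. Those gave every gene the same relative spread between libraries, so they do not bear on members that varied more, such as Krt75 in mTEC Aβ0/0. CPM values use TMM library sizes over the 12 libraries. Intervals and floors (3 counts) cover counting error only, since amplified reads are not independent molecules.

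Groups came from the sample titles. The cTEC and mTEC libraries of the same number and genotype were taken to come from the same pool, since the study lists cell yields by sort and genotype, and their deviations from the group means correlated at 0.0381 to 0.24. The same list sets WT and Aβ0/0 side by side under each replicate number, but whether they were sorted together is not stated. Their deviations correlated at -0.0391 to 0.245. Over both kinds of pair, replicate 1 gave 0.219 to 0.245, and replicates 2 and 3 gave -0.0391 to 0.0912. The members and lists were chosen with earlier results of these data known. Named in full were Krt5, Krt8, Krt14, Krt18 and Krt10, each keratin called in any comparison, the 5 highest by TPM in any group and the 3 largest log2 fold changes each way, with at most 3 called genes per partner list; those not described singly are given by counts. The sequence a keratin shares with other genes was measured as 31-base words of the GENCODE transcripts.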

Additional observations from a re-analysis of the deposited data

How the results depend on the processing

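Alternatives were other size factors (RLE), no filter or a mean of at least 10 counts, DESeq2, all 12 libraries fitted together, limma on the rlog values, a replicate block and leaving out each library. In WT, 30 keratins were called between mTEC and cTEC, and 16 with all 12 libraries fitted. In Aβ0/0, 5 were called, against 17 with DESeq2, 13 with all 12 libraries and 3 with limma on rlog, and 1 to 4 when a library was left out. Between genotypes in mTEC, 5 were called, against 10 with DESeq2, 3 with limma on rlog and 0 with no filter, with a mean of at least 10 counts and with all 12 libraries; leaving out a library gave 0 to 12 (12 without Aβ0/0 replicate 1, 2 without Aβ0/0 replicate 2, 0 without any other). For the difference of genotype effects, DESeq2 called 3 and limma on rlog 5. The cause was not tested.

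With the replicate block, 29 keratins were called between the gates in WT, 5 in Aβ0/0, 0 between genotypes in mTEC, 0 in cTEC and 0 for the difference of effects. For the gates the block is the pool, and the calls of Krt1 (log2 fold change 1.38, edgeR adjusted p = 0.0884) and Krt18 in WT and of Krt77 in Aβ0/0 were lost. For the genotypes the number is that of the sort, and whether both genotypes were sorted together is not stated.

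Small log2 fold changes that were not called turned sign. Leaving out 1 library gave -0.19 to 0.70 for Krt10 between the gates in WT, where 0.70 was called without cTEC replicate 3, and -0.86 to 0.42 for Krt19 between the gates in Aβ0/0. Between genotypes in mTEC it gave -1.02 to 0.23 for Krt19 and -0.01 to 0.42 for Krt8, in cTEC -0.32 to 0.63 for Krt10 and -0.04 to 0.11 for Krt14, and for the difference of effects -0.75 to 0.53 for Krt19. With limma on rlog, Krt10 between the gates in WT was at -0.36, Krt19 in Aβ0/0 at -0.19, Krt5 between genotypes in mTEC at 0.00 and Krt14 in cTEC at -0.00, and with the replicate block Krt19 in Aβ0/0 was at -0.25.

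With coding transcripts only, Krt14 was at 400 and 398 TPM in cTEC WT and Aβ0/0 and at 799 and 999 in mTEC WT and Aβ0/0, Krt19 at 156 in cTEC WT and 123 in mTEC WT, and Krt7 at 265 in cTEC Aβ0/0, 201 in mTEC WT and 291 in mTEC Aβ0/0. In CPM, the ratio of type I to type II was 1.07 in cTEC WT, 1.15 in cTEC Aβ0/0, 1.16 in mTEC WT and 1.27 in mTEC Aβ0/0. With 3 libraries per group, differences smaller than the spread between pools are not detectable.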
